A study of Mus musculus with 40 samples.

Results

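The 36 BXD lines of this hypothalamus RNA-seq panel fell into a low and a high set by their level of Scd4, a stearoyl-CoA desaturase gene on chromosome 19. The members of each set were chosen by their measured Scd4 value alone, with the boundary at 1.4 CPM (counts scaled to library totals of the same size, CPM). This put 21 lines in the Scd4-low set and 15 in the Scd4-high set. BXD lines are recombinant inbred mice that descend from both C57BL/6J and DBA/2J, and each carries a fixed mixture of these genomes. The other 4 of the 40 libraries came from C57BL/6J, DBA/2J and their first-generation hybrids, named B6D2F1 and D2B6F1, and they belong to neither set. All mice were untreated and sampled at a single time point, and the labels give no age or sex. Polyadenylated RNA gave 1 library per strain, each BXD library being made from equal RNA of 3 to 6 hypothalami. The spread within a set is therefore the spread between lines. Genotypes of the lines were not analysed here. Scd4 itself is described without a test, and every other gene was compared between the sets, as Scd4-low over Scd4-high.

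Stearoyl-CoA desaturases sit in the endoplasmic reticulum and introduce a double bond into saturated fatty acids, which yields oleate and palmitoleate for membrane lipids, triglycerides and cholesterol esters. Mice carry 4 such genes, Scd1 to Scd4, side by side on chromosome 19. Scd1 is the main form in liver and fat, Scd2 is the main form in brain, and Scd4 is known chiefly from heart. A sequence difference near a gene can change the level of that gene's own transcript, and in recombinant inbred lines long blocks of neighbouring sequence are inherited together.

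Scd4 and its neighbour Scd3 are shown together because the lines parted by Scd4, while Scd3 did not pass the test between the sets. Each window runs from 250 bases before to 50 bases after the transcription start in the RefSeq table for GRCm38.p6. Scd4 lies at chr19:44333076-44333375 on the plus strand and Scd3 at chr19:44203038-44203337 on the plus strand. Capitals mark matches to 6 motifs searched on both strands, namely CCAAT (the CCAAT box), GGGCGG (the GC box), CACGTG (the E-box palindrome), TATAAA (the TATA box), TTTAAA (a variant of it, added after the sequences were seen) and the sterol regulatory element TCACNCCAC.
Scd4: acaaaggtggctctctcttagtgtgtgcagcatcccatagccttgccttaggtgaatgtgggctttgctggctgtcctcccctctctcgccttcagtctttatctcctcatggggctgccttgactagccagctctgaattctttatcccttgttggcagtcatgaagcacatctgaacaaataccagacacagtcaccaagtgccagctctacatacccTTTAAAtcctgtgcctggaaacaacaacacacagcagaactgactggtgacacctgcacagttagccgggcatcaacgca
Scd3: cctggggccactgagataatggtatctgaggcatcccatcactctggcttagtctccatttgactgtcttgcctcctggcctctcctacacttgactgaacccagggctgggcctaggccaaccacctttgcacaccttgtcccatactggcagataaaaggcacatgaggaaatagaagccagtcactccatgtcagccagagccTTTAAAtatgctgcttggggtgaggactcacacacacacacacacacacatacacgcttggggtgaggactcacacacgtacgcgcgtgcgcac
Each of the 2 windows held 1 match, to TTTAAA, which was present in 13.2% of 32851 such windows in the table. Neither held a match to the sterol regulatory element, which was present in 1.24% of the windows, to CCAAT, present in 37.4%, or to TATAAA, present in 13.6%. A match or its absence is a description of these letters only.

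Scd4 was close to absent in the low set. The 21 lines had 2 to 10 Scd4 reads per library, with a lowest level of 0.0888, a median of 0.234 and a highest of 0.401 CPM. The 15 high lines had 50 to 261 reads, with a lowest level of 4.09, a median of 5.01 and a highest of 9.74 CPM. The sets averaged 0.241 ± 0.0888 CPM in the low lines (SD, n = 21) and 6.57 ± 2.401 CPM in the high lines (SD, n = 15), a ratio of 0.0367. No line lay between BXD64 at 0.401 and BXD55 at 4.09 CPM, an empty interval of 3.35 log2 units. These values chose the sets and are given as a description.

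Among the low lines, BXD50 at 0.0888, BXD101 at 0.0998 and BXD95 at 0.120 CPM had the least Scd4. BXD66 at 0.166, BXD44 at 0.167, BXD89 at 0.175, BXD71 at 0.177 and BXD73 at 0.198 CPM followed. BXD100 at 0.221, BXD51 at 0.223, BXD96 at 0.234, BXD79 at 0.274, BXD90 at 0.277, BXD61 at 0.282, and BXD70 and BXD49, each at 0.288 CPM, formed the middle of the set. The exact Poisson 95% intervals of the low lines were wide, because 10 reads or fewer lay behind each value, so their order cannot be read. BXD81 at 0.332, BXD29 at 0.333, BXD103 at 0.344, BXD43 at 0.368 and BXD64 at 0.401 CPM were at the upper end.

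The high lines were themselves parted by a smaller empty interval of 0.56 log2 units. Below it stood 9 lines, BXD55 at 4.09, BXD67 at 4.13, BXD32 at 4.32, BXD83 at 4.47, BXD98 at 4.57, BXD48 at 4.88, BXD75 at 5.001, BXD56 at 5.01 and BXD65 at 5.97 CPM. Above it stood 6 lines, BXD97 at 8.79, BXD87 at 9.01, BXD85 at 9.44, BXD84 at 9.55, BXD63 at 9.56 and BXD45 at 9.74 CPM. The 9 lines averaged 4.72 ± 0.587 CPM and the 6 lines 9.35 ± 0.366 CPM (SD). This second step was noticed in the values and was not tested.

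**Figure D1:**
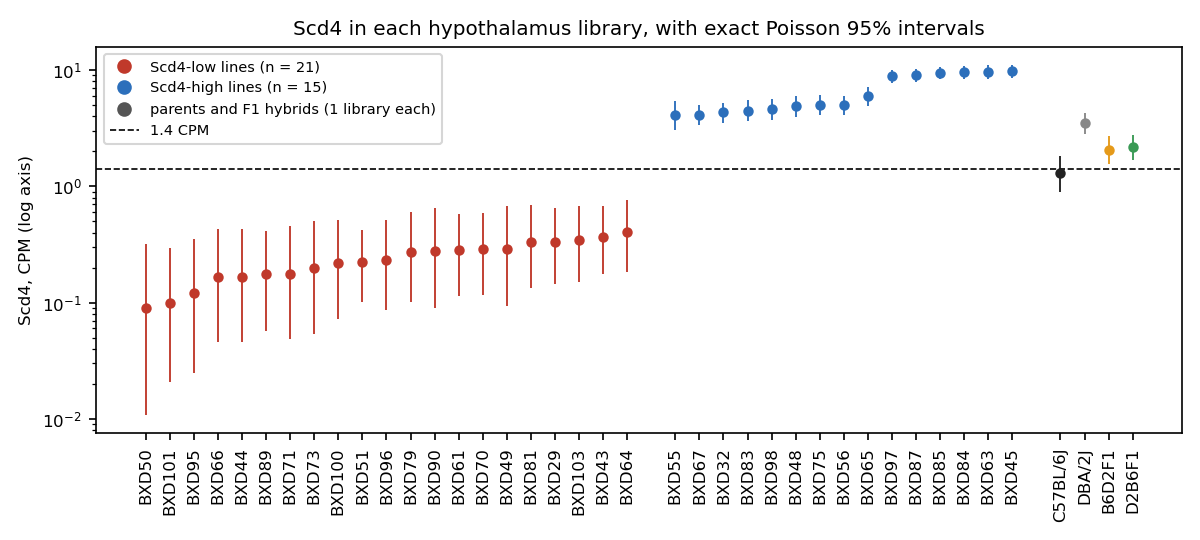
Scd4 in CPM on a log axis for every library, with exact Poisson 95% intervals that cover counting error only. The 21 low lines lie at 0.401 CPM or less and the 15 high lines at 4.09 CPM or more, with C57BL/6J at 1.29 CPM and DBA/2J, B6D2F1 and D2B6F1 between the sets.

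The parental and hybrid libraries all lay inside the empty interval. The 33 Scd4 reads of C57BL/6J came to 1.29 CPM (exact Poisson 95% interval 0.890 to 1.82). The 92 reads of DBA/2J came to 3.48 CPM (interval 2.81 to 4.27). C57BL/6J was thus the parent nearer the low set, yet it stood 3.22-fold above the highest low line. B6D2F1 at 2.06 CPM and D2B6F1 at 2.17 CPM lay between the parents. With 1 library per strain, these differences have no replicate check.

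Most of the annotated transcript sequence of Scd4 is its own. Of 3668 different windows of 100 bases, the read length, in the GENCODE transcripts of Scd4, 17 (0.463%) occurred in another gene, which was Scd1. For Scd1 the share was 2.58%, for Scd2 0.879% and for Scd3 2.49%. These are shares of sequence, not of counted reads. Scd1 averaged 462 CPM in the low lines and 459 CPM in the high lines, far above Scd4. How the deposited counts treated reads that fit more than one gene is not given in the sources used here. Whether the few Scd4 reads of the low lines or the parents came from Scd1 was not tested.

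Outside Scd4, 9 of 15598 genes differed between the sets at an adjusted p under 0.05 (edgeR's quasi-likelihood test, Benjamini-Hochberg adjustment over all genes tested), which is 0.0577%. All 9 lie on chromosome 19, where they made up 1.7% of the 529 genes tested, and 0 of the other 15069 genes passed. The smallest adjusted p off chromosome 19 was 0.0853 by edgeR, for Stab2, and DESeq2 also called 0 genes there. A filter at a mean of 1 CPM called 1 gene off chromosome 19 (Slc6a5) and no filter called 2 (Slc6a5 and Hoxa5). Genes at an unadjusted p under 0.05 numbered 43 of 529 (8.13%) on chromosome 19 and 270 of 15069 (1.79%) elsewhere. Of the 9, 8 were higher (0.0513% of all genes) and 1 was lower (0.00641%) in the low lines.

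The 9 genes lay close to Scd4 in gene order. Counting tested genes of chromosome 19 outward from Scd4, on an annotation of GRCm38.p6, 7 of the 50 genes within 25 places on each side were called, and 2 of the next 50. None of the 100 genes from 51 to 100 places away passed, nor did any of the 329 genes farther off. The share at an unadjusted p under 0.05 was 32% within 25 places and 28% from 26 to 50. It was 10% from 51 to 100 places and 0.912% beyond, against 1.79% on the other chromosomes. Most neighbours moved little, with a median absolute log2 difference of 0.055 within 25 places, against 0.028 on the other chromosomes.

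**Figure D2:**
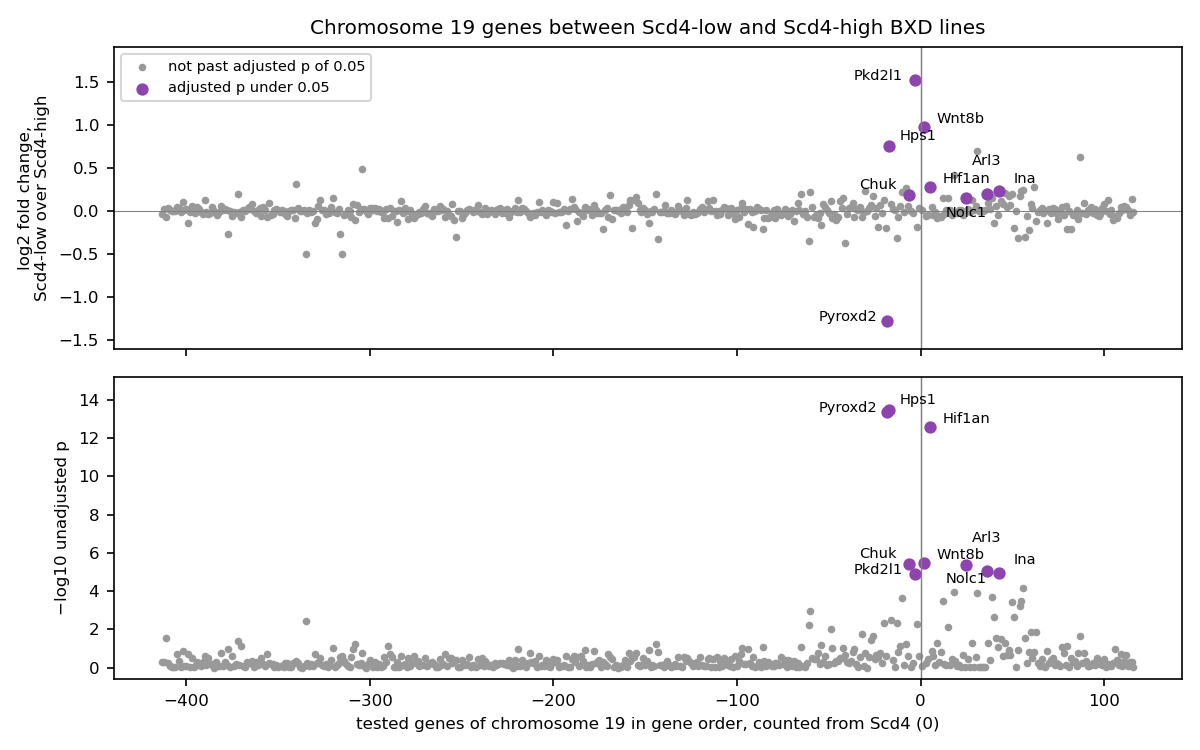
The upper panel plots the log2 fold change (Scd4-low over Scd4-high) and the lower panel −log10 of the unadjusted p for the 529 tested genes of chromosome 19 in gene order from Scd4. The 9 genes past an adjusted p of 0.05, in purple, all lie within 50 places of Scd4, and Pyroxd2 is the only one of them lower in the low lines.

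The 3 smallest p-values were those of Hps1, Pyroxd2 and Hif1an, although Pkd2l1 and Wnt8b differed by more in size than Hps1 or Hif1an. Their promoter windows are shown because in each of them at most 1 low line fell inside the range of the high lines. The windows are from the same RefSeq table, at chr19:42779929-42780228 on the minus strand for Hps1 (the first of 2 listed starts), chr19:42752726-42753025 on the minus strand for Pyroxd2 and chr19:44562604-44562903 on the plus strand for Hif1an. Capitals mark the same 6 motifs.
Hps1: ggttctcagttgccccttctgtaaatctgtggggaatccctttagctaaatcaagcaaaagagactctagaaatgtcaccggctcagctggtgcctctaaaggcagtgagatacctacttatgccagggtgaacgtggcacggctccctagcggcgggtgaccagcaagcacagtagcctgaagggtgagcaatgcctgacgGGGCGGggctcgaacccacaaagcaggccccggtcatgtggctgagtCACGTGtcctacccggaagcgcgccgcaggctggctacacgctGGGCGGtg
Pyroxd2: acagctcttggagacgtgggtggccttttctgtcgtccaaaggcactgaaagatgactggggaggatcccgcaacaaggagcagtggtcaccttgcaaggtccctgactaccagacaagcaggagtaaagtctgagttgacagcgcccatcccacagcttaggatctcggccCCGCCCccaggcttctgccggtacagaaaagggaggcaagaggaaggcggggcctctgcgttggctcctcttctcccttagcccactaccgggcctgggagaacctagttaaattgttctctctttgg
Hif1an: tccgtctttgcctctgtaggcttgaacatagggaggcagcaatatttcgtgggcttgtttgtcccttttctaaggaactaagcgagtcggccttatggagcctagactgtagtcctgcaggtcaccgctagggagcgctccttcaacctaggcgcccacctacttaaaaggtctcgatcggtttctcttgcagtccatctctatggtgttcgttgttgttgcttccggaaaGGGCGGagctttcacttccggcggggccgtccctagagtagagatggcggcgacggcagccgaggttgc
Each of the 3 held GGGCGG, which 35.7% of all windows hold, with 2 matches in Hps1 and 1 each in Pyroxd2 and Hif1an. Hps1 also held CACGTG, present in 7.15% of all windows. None of the 3 held TTTAAA, present in 13.2% of all windows, or the sterol regulatory element, present in 1.24%. TTTAAA joined the motifs after the sequences were seen, so its absence here is no contrast with Scd4 and Scd3.

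Hps1 encodes a subunit of the BLOC-3 complex, which is needed to build lysosome-related organelles such as melanosomes. The low lines had a lowest level of 13.7, a median of 24.6 and a highest of 29.1 CPM of Hps1, and the high lines had 11.9, 14.3 and 16.9 CPM. Of the 21 low lines, 1, BXD96, fell inside the range of the high lines, and the other low lines lay above it. The means were 23.9 ± 3.30 CPM in the low lines (SD, n = 21) and 14.2 ± 1.497 CPM in the high lines (SD, n = 15). Hps1 was 1.68-fold higher in the low lines, with a log2 fold change of 0.75 ± 0.065 (SE) and an adjusted p = 3.38e-10 by edgeR. It stands 17 places before Scd4.

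Pyroxd2, the next gene at 18 places before Scd4, encodes a predicted pyridine nucleotide-disulphide oxidoreductase and went the other way. The low lines had a lowest level of 2.25, a median of 3.53 and a highest of 9.51 CPM, and the high lines had 7.69, 9.36 and 11.96 CPM. The highest of the low lines was again BXD96, which had 9.51 CPM, and the rest of the low set lay below every high line. Pyroxd2 averaged 3.92 ± 1.43 CPM in the low lines and 9.46 ± 1.04 CPM in the high lines (SD, n = 21 and 15). Its log2 fold change was -1.27 ± 0.11 (SE), with an adjusted p = 3.38e-10 by edgeR.

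Hif1an encodes the asparaginyl hydroxylase known as factor inhibiting HIF, which restrains the hypoxia-inducible factors when oxygen is present. It had 58.6, 64.8 and 73.5 CPM as lowest, median and highest in the low lines, and 51.5, 53.6 and 57.2 CPM in the high lines. Hif1an was the only gene of the 15598 whose sets did not overlap with the low lines above (0.00641%), and 0 genes did so with the low lines below. The difference was small in size, with means of 65.3 ± 3.40 CPM in the low lines and 53.9 ± 1.94 CPM in the high lines (SD). Its log2 fold change was 0.28 ± 0.026 (SE), or 1.21-fold, with an adjusted p = 1.43e-09 by edgeR. Hif1an is the fifth tested gene after Scd4.

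Pkd2l1, Wnt8b and Chuk also lay within 6 places of Scd4 and were higher in the low lines. Pkd2l1, 3 places before Scd4, encodes a cation channel that marks the neurons contacting the cerebrospinal fluid. It had a lowest level of 1.33, a median of 2.57 and a highest of 7.58 CPM in the low lines, against 0.143, 0.981 and 3.35 CPM in the high lines. The sets overlapped widely, with 14 of the 21 low lines inside the range of the high lines. In bulk tissue, fewer cells of a type and less RNA per cell cannot be told apart. The log2 fold change was 1.52 ± 0.30 (SE), the largest of the 9 in size, with an adjusted p = 0.0207 by edgeR. With library depth as a covariate the log2 fold change was 1.388 (adjusted p = 0.0823 by edgeR), and without the 4 lines richest in Ttr it was 1.41 (adjusted p = 0.195), so the call was lost in both at a similar size.

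Wnt8b, a secreted Wnt ligand of the developing forebrain, is the second tested gene after Scd4 and was near the limit of detection. The low lines had 6 to 19 Wnt8b reads and the high lines 1 to 10. Lowest, median and highest were 0.267, 0.490 and 0.807 CPM in the low lines, against 0.0505, 0.227 and 0.461 CPM in the high lines. The log2 fold change was 0.97 ± 0.18 (SE), with an adjusted p = 0.0107 by edgeR, and the sets overlapped. Without the Ttr-rich lines the log2 fold change was 0.90, with an adjusted p = 0.0562 by edgeR.

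Chuk, 6 places before Scd4, encodes the kinase IKK-alpha of the NF-kappaB pathway. Its lowest, median and highest levels were 48.7, 56.3 and 66.8 CPM in the low lines and 45.7, 50.6 and 55.8 CPM in the high lines. The means, 57.4 ± 4.33 CPM in the low lines and 50.4 ± 3.16 CPM in the high lines (SD), gave a log2 fold change of 0.19 ± 0.035 (SE) and an adjusted p = 0.0107 by edgeR. The sets overlapped, with 8 low lines inside the range of the high lines.

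The other called genes lay 25 to 43 places after Scd4 and were higher in the low lines by 0.14 to 0.23 log2 units. Nolc1, a nucleolar phosphoprotein gene, had a lowest level of 77.0, a median of 84.8 and a highest of 92.5 CPM in the low lines, against 69.9, 76.3 and 89.1 CPM in the high lines. It averaged 84.8 ± 3.84 CPM in the low lines and 76.6 ± 4.60 CPM in the high lines, a log2 fold change of 0.14 ± 0.027 (SE) with an adjusted p = 0.0107 by edgeR. Arl3, a small GTPase gene of cilia, had 57.6, 72.7 and 89.1 CPM as lowest, median and highest in the low lines, against 58.3, 62.9 and 76.1 CPM in the high lines, so all 15 high lines fell inside the range of the low lines. Arl3 averaged 72.9 ± 6.59 CPM in the low lines and 63.6 ± 4.26 CPM in the high lines, a log2 fold change of 0.19 ± 0.038 with an adjusted p = 0.0198 by edgeR. Ina, which encodes the neuronal intermediate filament protein alpha-internexin, ran from 114 to 157 CPM in the low lines and from 95.7 to 153 CPM in the high lines. It averaged 140 ± 10.7 CPM in the low lines and 119 ± 14.1 CPM in the high lines. Its log2 fold change was 0.23 ± 0.045, with an adjusted p = 0.0207 by edgeR. In all 3 genes the sets overlapped, and BXD87 had the highest value of the high set in each, at 89.1 CPM of Nolc1, 76.1 CPM of Arl3 and 153 CPM of Ina. With library depth as a covariate Arl3 had a log2 fold change of 0.17 and Ina 0.22, with an adjusted p = 0.0637 by edgeR for both. Without the Ttr-rich lines Arl3 had 0.18 (adjusted p = 0.172 by edgeR) and Ina 0.22 (adjusted p = 0.0560), so both calls were lost while the differences stayed similar in size.

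Antisense transcripts touch some of the called genes. The exons of Ina share 14.1% of their bases with exons of Nt5c2 on the opposite strand, and 11.4% of its 100-base windows also occur in Nt5c2. For Hps1, 4.12% of exonic bases overlap Gm16244 on the opposite strand, and for Pyroxd2 1.77% overlap AC125458.1. The libraries were stranded per the labels, but whether the counting used strand is not given in the sources used here. No 100-base window of Chuk, Pkd2l1, Wnt8b, Hif1an, Nolc1, Arl3 or Pyroxd2 was found in another gene's transcripts.

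**Figure D3:**
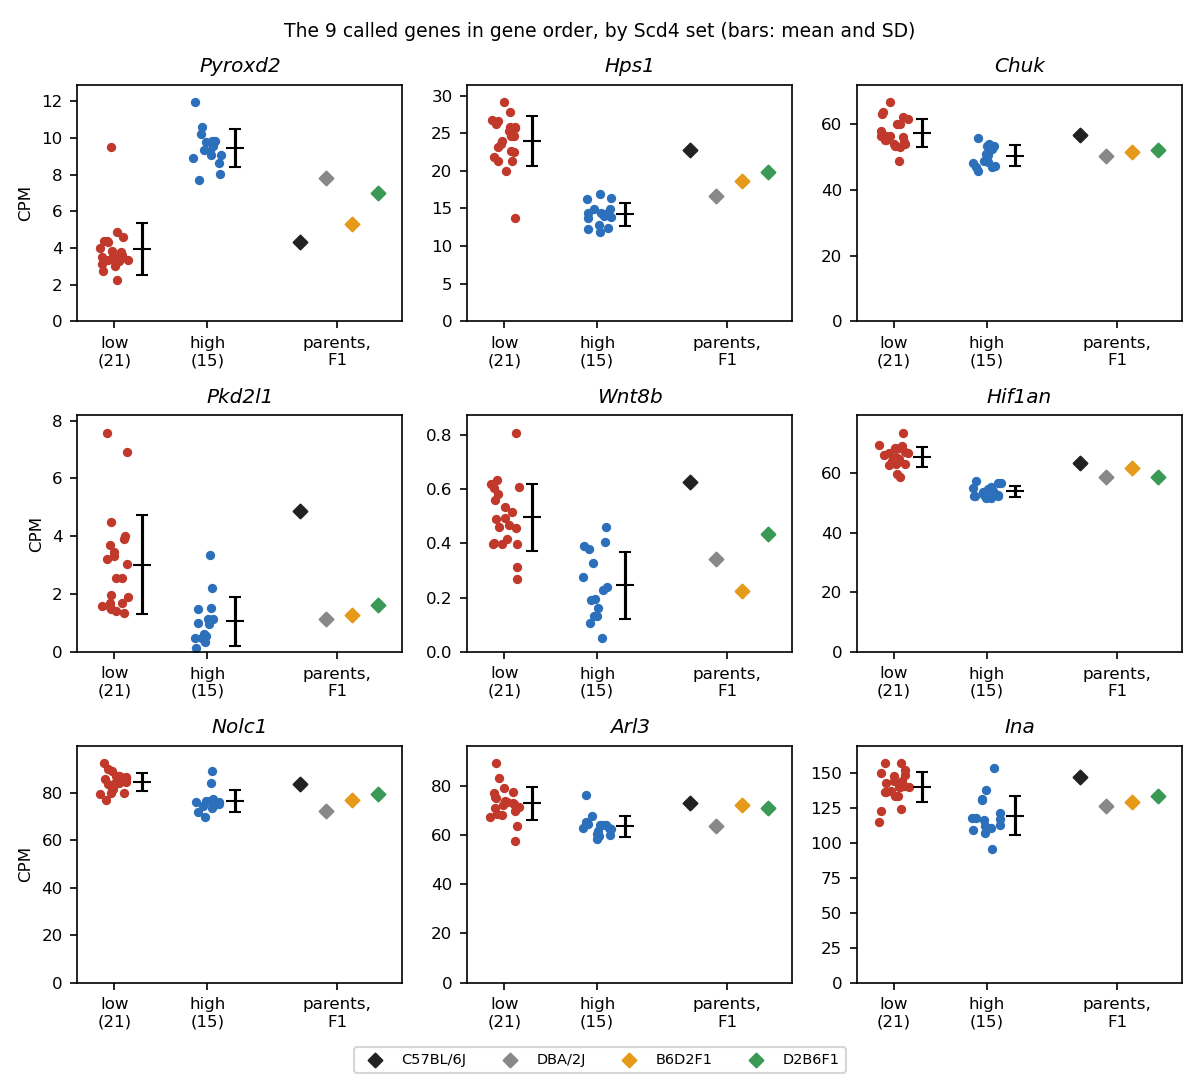
CPM of the 9 called genes in the 21 Scd4-low lines (left), the 15 Scd4-high lines and the parents and F1 hybrids (right), with mean and SD of each set. Hif1an does not overlap between the sets, Hps1 and Pyroxd2 overlap through the low line BXD96, and the others overlap more widely.

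The midpoint between the means of the sets was used as a plain mark for each gene. Single lines lay past it at all 9 genes. At Hps1 and Pyroxd2, BXD96 lay past the midpoint in both genes and no other low line did so in either, and 0 of the 15 high lines did. BXD96 had 13.7 CPM of Hps1 and 9.51 CPM of Pyroxd2, next to the high-set medians of 14.3 and 9.36, whereas its Scd4 level of 0.234 CPM was the median of the low set. At Nolc1, Arl3 and Ina the low lines BXD66 and BXD81 and the high line BXD87 lay past the midpoint in all 3 genes. BXD87 and BXD81 were not past it at Hps1 or Pyroxd2. Genes next to Scd4 had such lines as well, with 9 low and 2 high lines at Pkd2l1, 4 low and 2 high lines at Chuk, and 2 low and 4 high lines at Wnt8b. Hif1an had 1, the low line BXD51, which still lay above every high line. Over all 9 genes, 5 of 21 low lines and 6 of 15 high lines were never past a midpoint. Because these genes were called for the difference between the same sets, the counts describe which lines depart from it.

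**Figure D4:**
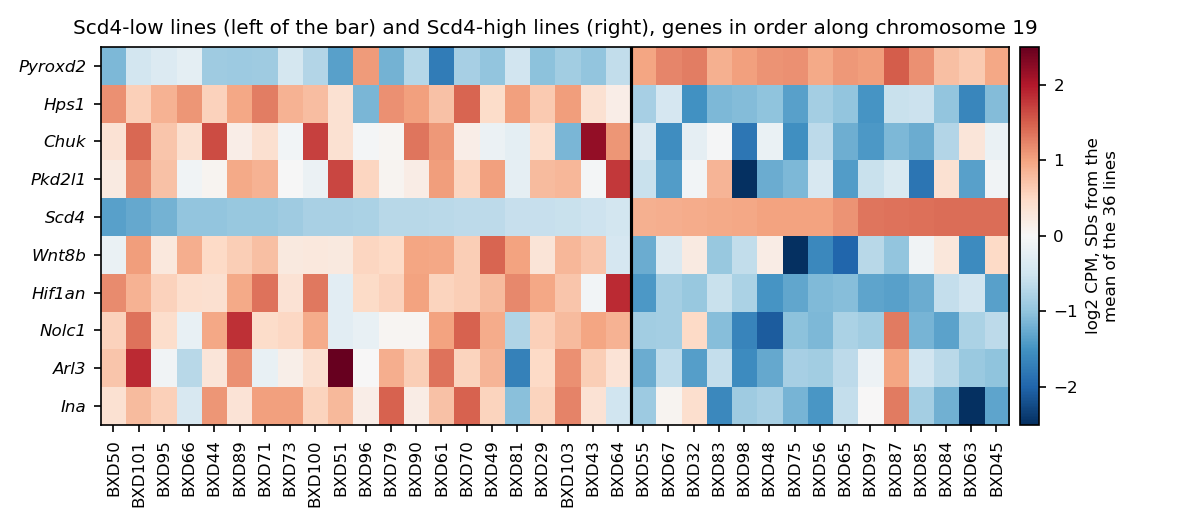
Each row is a gene in its order along chromosome 19 and each column a line, ordered by Scd4 with the 21 low lines to the left of the bar, and colours give log2 CPM in SDs from the mean of the 36 lines. BXD96 has the colours of the high set at Pyroxd2 and Hps1, and BXD87 those of the low set at Nolc1, Arl3 and Ina.

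The parents and hybrids, which chose nothing, were set beside the 9 genes. C57BL/6J stood on the low-set side of DBA/2J in 9 of 9. How often parents and sets share a direction over all genes tested was not counted, so this is a description. The exact Poisson 95% intervals of the parents overlapped in 2 of these, Hif1an and Wnt8b, the second with 16 reads in C57BL/6J and 9 in DBA/2J. Hps1 was at 22.7 CPM for C57BL/6J and 16.6 CPM for DBA/2J, and Pyroxd2 was at 4.31 CPM for C57BL/6J and 7.84 CPM for DBA/2J. Pkd2l1 had 124 reads, or 4.86 CPM, in C57BL/6J and 30 reads, or 1.14 CPM, in DBA/2J. The parents were closer together than the sets in 6 of the 9 genes, as in Hif1an with 63.2 CPM for C57BL/6J and 58.8 CPM for DBA/2J. Of the 18 hybrid values, 16 lay between the parents, the exceptions being Hif1an in D2B6F1, at 58.6 CPM, and Wnt8b in B6D2F1, at 0.225 CPM. Of the transcripts compared, Scd4 and Pyroxd2 were higher in DBA/2J and the other 8 were higher in C57BL/6J. How far alignment of reads with DBA/2J sequence to the reference moved these values was not tested.

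None of the other desaturases passed the test. All 9 were tested, and 0 were called in either direction by edgeR, with 1, Scd3, at an unadjusted p under 0.05. Scd2, the most abundant, had a lowest level of 2473, a median of 2695 and a highest of 2902 CPM in the low lines, against 2270, 2615 and 2973 CPM in the high lines. Its log2 fold change of 0.035 had a 95% interval of -0.024 to 0.094. Scd1 had 383, 447 and 565 CPM as lowest, median and highest in the low lines, and 372, 458 and 560 CPM in the high lines. The interval of its log2 fold change of 0.0097 was -0.097 to 0.12. Scd2 and Scd1 are the nearest tested neighbours of Scd4 on either side.

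Scd3, the second tested gene before Scd4, came nearest to a difference. It had a lowest level of 3.71, a median of 4.72 and a highest of 5.69 CPM in the low lines, against 4.45, 4.80 and 6.82 CPM in the high lines. Its log2 fold change was -0.18 ± 0.060 (SE), with an unadjusted p = 0.00495 by edgeR and an adjusted p of 1.00. The sets overlapped over most of their range. The polyunsaturated fatty acid desaturases Fads1 (0.0029), Fads2 (0.028) and Fads3 (0.033), their relative Fads6 (-0.065) and the sphingolipid desaturases Degs1 (-0.0041) and Degs2 (0.043) had log2 fold changes near 0. Their 95% intervals all lay between -0.19 and 0.13.

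The remaining uncalled neighbours within 5 places of Scd4 had values near 0. Log2 fold changes were -0.028 for Bloc1s2, a BLOC-1 subunit gene, -0.0015 for Cwf19l1, -0.052 for Ndufb8, a subunit gene of respiratory complex I, and -0.058 for Sec31b. Of the 10 tested genes within 5 places, 3 were called, Pkd2l1, Wnt8b and Hif1an.

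Across lipid metabolism no gene was called. Of 155 lipid genes listed besides Scd4, 150 were tested, with 0 past the threshold, 78 higher and 72 lower in the low lines. Their median log2 fold change was 0.0016, against 0.00035 over all genes tested, and 5 had an unadjusted p under 0.05 (3.33% of the 150, against 2.01% of all genes). The median half-width of their 95% intervals was 0.099 log2 units, and in 0 of the 150 was it over 0.5.

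By role, the enzymes of fatty acid synthesis and elongation had 0 of 23 tested called and a median log2 fold change of 0.0034. Fasn, the fatty acid synthase gene, averaged 481 CPM in both the low and the high lines with a log2 fold change of -0.0017 ± 0.045 (SE), and Acly, ATP-citrate lyase, had -0.036 ± 0.025. The widest in this group were Acaca, acetyl-CoA carboxylase (0.30), and Mlycd, malonyl-CoA decarboxylase (-0.28), neither past the test. The sterol pathway had 0 of 29 called and a median of -0.0030, with Srebf2, its main transcription factor gene, at -0.0030 ± 0.048 (SE). Fatty acid oxidation had 0 of 29 called and a median of 0.0048, and the values farthest from 0 were those of Acot1, an acyl-CoA thioesterase (0.19), and the receptor gene Ppara (-0.11).

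Triglyceride and phospholipid genes had 0 of 32 called with a median of 0.0018, from -0.13 for Pemt to 0.096 for Plin3. Fatty acid uptake and lipid transport had 0 of 28 called with a median of 0.0030, from -0.20 for Fabp7 to 0.15 for Nr1h3. Apoe, the main brain apolipoprotein gene, averaged 1291 CPM in the low lines and 1258 CPM in the high lines, with a log2 fold change of 0.036 ± 0.073 (SE). These misses do not show equal levels, and the intervals above give the sizes that the data still allow.

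**Figure D5:**
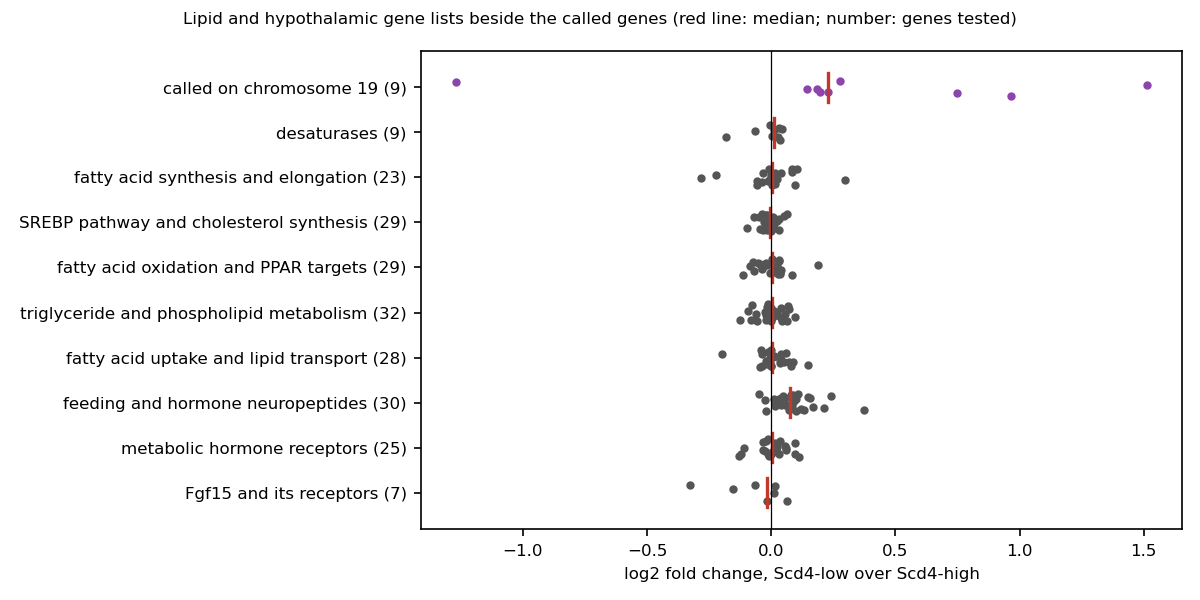
Log2 fold change (Scd4-low over Scd4-high) of the 9 called genes, in purple, above the tested members of the lipid and hypothalamic lists, in grey, each list with its median as a red line. The medians of the 6 lipid lists lie between -0.0030 and 0.0097, and the feeding and hormone neuropeptides have the highest list median in grey, 0.076.

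Hypothalamic genes were examined as the tissue's own functions, and the hypothalamic peptide gene Pmch was present in all lines. Pmch, the melanin-concentrating hormone gene, ran from 67.5 to 161 CPM in the low lines and from 83.7 to 152 CPM in the high lines. In the list of feeding and hormone neuropeptides, which also holds the dopamine transporter gene Slc6a3, 0 of 30 genes passed. Of the 30, 27 were higher in the low lines, against 7847 of 15598 over all genes tested. Their median log2 fold change was 0.076 against 0.00035 over all genes, with a range of -0.049 for Grp to 0.38 for Slc6a3. These genes share the same libraries, so this count is a description. The log2 fold change of Pmch was 0.038 ± 0.093 (SE), and that of Sst, somatostatin, 0.13 ± 0.086. Metabolic hormone receptors had 0 of 25 called and a median of 0.0036, with Lepr, the leptin receptor, lowest at -0.13. The list of Fgf15 and its receptors had 0 of 7 called, with Fgf15 at 0.064 and Fgfr4 at -0.33.

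Markers of other cell types did not pass the test in any list. Myelin genes had 0 of 20 called and 18 lower, with a median log2 fold change of -0.066, and summed to 4435 to 8292 CPM in the low lines and 4992 to 8794 CPM in the high lines. Choroid plexus genes had 0 of 10 called and 9 lower, with a median of -0.42, led by Ttr, the plexus's transthyretin gene, at -3.89 (adjusted p = 0.230 by edgeR). Of the 10, 3 had an unadjusted p under 0.05 by edgeR, against 313 of 15598 genes (2.01%) over all genes tested. Over all genes tested, 7751 of 15598 were lower in the low lines. Genes of a list share the same libraries, so the counts of 18 and 9 lower are descriptions. Ttr was at 20 CPM or more in 4 lines, the low line BXD101 at 51.04 CPM and the high lines BXD32 at 808, BXD65 at 78.6 and BXD63 at 22.03 CPM. The plexus list summed to 46.1 to 115 CPM in the low lines and 49.5 to 937 CPM in the high lines. Medians of Ttr were 0.923 CPM in the low lines and 1.46 CPM in the high lines. Without the 4 lines, Ttr had a log2 fold change of 0.31 and 6 genes were called, all on chromosome 19, of which 5 were among the 9. The 5 were Hps1, Pyroxd2, Hif1an, Chuk and Nolc1. Stab2, a scavenger receptor gene, was high in the high lines BXD32 and BXD45, at 83.1 and 84.9 CPM, and at most 3.35 CPM in the low lines. BXD45 had only 1.75 CPM of Ttr, and the Ttr-rich line BXD65 had 1.74 CPM of Stab2. Stab2 was at 121 CPM in DBA/2J and 18.6 CPM in C57BL/6J, against 2.62 CPM in B6D2F1 and 1.77 CPM in D2B6F1. The part of the cell type markers in the other calls was not tested.

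The remaining marker lists had 0 called as well. All 12 striatal genes were higher in the low lines with a median log2 fold change of 0.057. Their summed level, however, had a median of 556 CPM in the low lines and 567 CPM in the high lines. The highest sums were 1675 CPM in the low lines and 896 CPM in the high lines. These genes share the same libraries, so the count of 12 is a description. The median log2 fold changes were -0.060 for endothelial and mural, -0.10 for meningeal, -0.018 for microglial, 0.025 for astrocyte and tanycyte, -0.013 for thalamic and 0.14 for pituitary genes. Of 17 endothelial and mural genes, 14 were lower and 3 higher in the low lines, and 2 had an unadjusted p under 0.05 by edgeR. Of 13 meningeal genes 10 were lower and 3 higher, and of 16 astrocyte and tanycyte genes 4 were lower and 12 higher. These counts are descriptions as well. In the pituitary list 7 of 9 were higher in the low lines, but Gh was lower, at -2.09 (unadjusted p = 0.00961 by edgeR). Gh reached 24.6 CPM in the high lines and 5.61 CPM in the low lines, with medians of 0.334 and 0.124 CPM. Only 1 of 8 blood genes was abundant enough to be tested, Alas2, at 0.038. The summed level of each of the 10 marker lists, Ttr, the library totals and the number of genes with a read were compared by a two-sided permutation test, and the smallest adjusted p of 13 measures was 0.498. Library totals were 24.3 ± 4.77 M reads in the low lines and 22.1 ± 3.92 M in the high lines (SD), with p = 0.153 by the permutation test before adjustment. Over all 40 libraries totals ran from 12.2 to 40.4 M.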

How the data were processed

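Polyadenylated RNA of hypothalamus was sequenced as stranded 100-base single-end reads, per the labels. The submitters' processing notes name TopHat2 2.0.8, HTSeq 0.5.4p3, DESeq and the mm9 assembly, without roles or parameters. The authors deposited raw counts for 23955 gene symbols, the basis of every result, and a normalized signal for 15251 names, counts divided by a size factor per library, in which 100% of values were a whole number of steps (tolerance 0.01).

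CPM are counts over library totals. The test on 36 lines was edgeR 4.0.16 under R 4.3.3 (quasi-likelihood, robust, TMM, filterByExpr, adjusted p under 0.05), leaving Scd4 out of the adjustment. SE were taken from the F statistic. The step was tested on simulated data. Alternatives were DESeq2 1.42.0, limma 3.58.1, RLE factors, other filters, covariates, the normalized table and fewer lines.

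GENCODE vM21 and RefSeq on GRCm38.p6 placed 23828 symbols in order and left 127 unplaced. Of the called genes and Scd1 to Scd4, 13 in all, 10 had a promoter sequence. Named genes were the desaturases, 5 tested genes on each side of Scd4, the 15 smallest p on and 10 off chromosome 19 among calls, called list members and the 3 most abundant of each list, and some of these are not reported here. The sets, lists and rules were chosen with earlier results of these data known. Permutations numbered 100000. Relations of Scd4 with Scd1, Scd2 and library total within the sets are not reported, because Scd4 chose the sets and the low lines have few reads. Intervals are at 95% and cover counting error only for single libraries. With 1 library per line, p-values measure the spread between lines. No 2 libraries agreed within counting error (lowest chi-square per degree of freedom 4.58).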

Additional observations from a re-analysis of the deposited data

How the results depend on the processing

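Alternatives left the calls on chromosome 19 between 6 and 11 genes. Hps1, Pyroxd2, Hif1an, Chuk and Nolc1 stayed called in each of 10 alternatives, of which the one without the Ttr-rich lines was chosen after seeing the data. Of the 9 genes all remained with DESeq2 (10 called, with Gsto1), RLE factors, limma and the first principal component (11 called). All 9 also remained with no filter (12 called, with Abcc2, Slc6a5 and Hoxa5). Abcc2 was also called without the Ttr-rich lines. Over the 10 alternatives the log2 fold change ran from 1.388 to 1.596 for Pkd2l1, 0.72 to 0.76 for Hps1 and -1.30 to -1.25 for Pyroxd2. The recovered reads lost Ina, Wnt8b was not tested in them or under the filter at 1 CPM, and leaving out BXD32 and BXD43, the lines least like the others, lost Arl3. Genes called off chromosome 19 numbered 0 in edgeR as reported (270 at an unadjusted p under 0.05), 0 with DESeq2 (257), 1 with the filter at 1 CPM (Slc6a5) and 2 with no filter (Slc6a5 and Hoxa5), and the cause was not tested. The normalized table gave the same 21 low lines. No paired analysis was possible because each line has 1 library and the labels give no replicate numbers. Scd4 in the low lines rests on 10 reads or fewer, which limits their order.

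Some genes that were called nowhere changed sign, nearly all from values near 0 on the log2 scale, and the cause was not tested. The exceptions were Ttr, at -3.89 in all lines, whose 4 richest lines were the ones left out, Cga, at 0.18, and Kl, at -0.16. With library total as covariate they were Cwf19l1 0.0034, Fasn 0.019, Srebf2 0.0036, Pmch -0.038, Nr3c1 0.014, Clic6 -0.032, Flt1 0.011 and Csf1r 0.0068. With the principal component they were Fads1 -0.0025, Cwf19l1 0.0026, Tecr -0.018, Agpat3 -0.0047, Agpat1 -0.017, Nr3c1 0.0091 and Aldoc -0.0024. With recovered reads they were Agpat3 -3.9e-05 and Agpat1 -0.000202, and with limma Agpat3 -0.00016, Penk -0.014 and Pde10a -0.018. Without BXD32 and BXD43 they were Degs1 0.0071, Tecr -0.0018, Cpt1c -0.0053, Lpin2 -0.011, Agpat1 -0.0076, Kl 0.028, Zic1 -0.015 and Itm2a 0.0042. Without the Ttr-rich lines they were Fads1 -0.011, Fads2 -0.011, Fads3 -0.0013, Tecr -0.045, Cpt1c -0.032, Agpat3 -0.0077, Agpat1 -0.0495, Apoe -0.0501, Lrp1 -0.0052, Clu -0.011, Penk -0.0075, Pmch -0.0062, Nr3c1 0.046, Fgfr3 -0.016, Ttr 0.31, Kl 0.015, Slc17a6 0.0104, Cga -0.0012, Flt1 0.012, Slco1a4 0.049, Itm2a 0.012, Aldoc -0.025 and Alas2 -0.073.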
